A study of Mus musculus with 20 samples.

Results

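The 8 genes described here, Ly6c2, Plac8, Chil3, Vcan, Hp, Fn1, S100a4 and Ms4a4c, are used as markers of monocytes in the mouse, and they were followed mouse by mouse in RNA from brain microglia. They were taken by gene symbol from the deposited table, which held all 8 of them among 24062 genes. The table covers 20 male mice of the strain given as B6D2F1/J, with 6 mThy1-α-synuclein (labelled mThy1-Asyn) and 4 wild-type mice at 7 months of age and 5 of each genotype at 10 months. The mThy1-α-synuclein mice are hemizygous for full-length human wild-type α-synuclein, and the transgene sits on the X chromosome under the murine Thy-1 promoter, which is active mainly in neurons. The controls are their wild-type littermates. A sample is the microglia of 1 whole brain, from which red blood cells and myelin debris had been removed. The labels name IBA1 magnetic beads for the selection of microglia, whereas the methods of the study describe CD11b beads. The mice of an age were processed together, and the deposited values are gene counts divided by a size factor computed for each age on its own, called normalized counts here. Levels at 7 and at 10 months therefore stand on separate scales, and age cannot be told apart from processing.

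Monocytes are made in the bone marrow and circulate in the blood. Classical monocytes carry a high level of the surface antigen Ly6C and the chemokine receptor CCR2 and can enter inflamed tissue, whereas non-classical monocytes carry little Ly6C and patrol the vessel wall. Microglia settle in the brain before birth and maintain themselves there, so that blood monocytes in a brain preparation are either in its vessels and borders or have entered the tissue. CD11b is found on microglia and also on monocytes and neutrophils. In bulk RNA of this kind, fewer cells of a type cannot be told apart from less RNA per cell.

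A microglial marker transcript was present in every mouse. P2ry12, a purine receptor of microglia, lay between 203983 and 384337 normalized counts. Ccr2, which is not among the 8 genes, was present in every mouse at 3004 to 6964 normalized counts. S100a8, an abundant transcript of neutrophils, was present in every mouse at 11350 to 105141. Reads counted on genes numbered between 33404096 and 77806399 per mouse. Mice of the same group differed by a chi-square of 24.7 per gene or more, against 1 from counting noise, so the error that matters is the spread between mice.

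Of the surface proteins, Ly6c2 encodes a form of the Ly6C antigen that is anchored in the membrane by a lipid. It lies on chromosome 15 from 75108158 to 75111970 on the minus strand (mm10, as are all positions here). Its neighbour Ly6c1, from 75044018 to 75048830, is close to it in sequence, and their 396 coding bases differ at 9 positions (97.7% identical). The stretch that tells them apart best, coding bases 1 to 120 of the annotated transcripts, is shown with its 6 differences in capitals.
Ly6c2: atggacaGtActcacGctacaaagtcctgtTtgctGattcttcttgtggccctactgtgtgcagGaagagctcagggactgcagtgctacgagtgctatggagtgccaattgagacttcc
Ly6c1: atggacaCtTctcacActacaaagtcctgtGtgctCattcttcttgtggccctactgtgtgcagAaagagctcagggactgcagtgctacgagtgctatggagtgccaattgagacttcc
Of the 673 windows of 150 bases in the Ly6c2 transcript, 39 (5.79%) also occur in Ly6c1, and the longest shared run is 188 bases. A single read of 150 bases from such a window cannot be assigned by itself. The reads were paired, so its mate may lie outside the shared stretch, which was not examined. How the authors counted such reads is not given in the sources used here. Chil3 and Chil4, with a longest shared run of 136 bases, and Ms4a4c and Ms4a4b, with 127, have no window of that length in common.

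Ms4a4c, the other surface protein, is a membrane-spanning protein of the MS4A gene cluster on chromosome 19, from 11404770 to 11427246. Chil3 encodes Ym1, a secreted chitinase-like lectin, on chromosome 3 from 106147554 to 106167564. Hp encodes haptoglobin, which binds free hemoglobin and is stored in granules of neutrophils too, on chromosome 8 from 109575128 to 109579172. Plac8, a small cysteine-rich protein of the cytoplasm, lies on chromosome 5 from 100553725 to 100572245. S100a4, a calcium-binding protein, lies on chromosome 3 from 90603771 to 90606045. Fn1, fibronectin, on chromosome 1 from 71585520 to 71653200, and Vcan, the proteoglycan versican, on chromosome 13 from 89655312 to 89742509, encode proteins of the extracellular matrix.

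Since the members were found to vary together, the 250 bases before the RefSeq transcription start (GRCm38.p6) were searched for motifs of myeloid transcription factors on both strands. An entry was found for 6 of the 8 genes, not for Hp and Fn1, and Ly6c2 and Plac8 have 2 each for different starts, which makes 8 entries. The core of PU.1 sites, GAGGAA, occurs in 4 of the 8 entries (both of Ly6c2, the first of Plac8 and that of Ms4a4c) and in 23.3% of all 32851 promoter entries. The 2 entries of Ly6c2 overlap and share a match, and counted by gene the motif occurs in 3 of 6. The interferon-response motif GAAANNGAA occurs in the Chil3 entry (7.13% of all) and the C/EBP motif TTGCNNAA in the second Plac8 entry (9.56% of all). The AP-1 motif TGANTCA (6.75% of all) occurs in none of the 8. None of the matches overlaps another of these motifs. A match is a matter of letters and was not tested for binding. The first entry of each of the 4 genes with a match is shown 5′ to 3′ with the matched letters of either strand in capitals. They are chr15:75111972-75112221 (minus strand), chr5:100572206-100572455 (minus), chr19:11407411-11407660 (plus) and chr3:106167565-106167814 (minus).
Ly6c2: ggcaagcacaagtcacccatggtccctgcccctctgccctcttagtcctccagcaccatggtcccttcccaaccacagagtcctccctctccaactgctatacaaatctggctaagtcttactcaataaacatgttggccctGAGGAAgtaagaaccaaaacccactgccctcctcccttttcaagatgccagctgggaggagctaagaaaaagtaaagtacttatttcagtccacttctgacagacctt
Plac8: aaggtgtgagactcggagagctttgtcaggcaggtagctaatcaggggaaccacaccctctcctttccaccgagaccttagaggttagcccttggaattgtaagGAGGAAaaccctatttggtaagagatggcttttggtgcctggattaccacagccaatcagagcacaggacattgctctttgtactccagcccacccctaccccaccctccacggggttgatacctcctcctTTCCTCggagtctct
Ms4a4c: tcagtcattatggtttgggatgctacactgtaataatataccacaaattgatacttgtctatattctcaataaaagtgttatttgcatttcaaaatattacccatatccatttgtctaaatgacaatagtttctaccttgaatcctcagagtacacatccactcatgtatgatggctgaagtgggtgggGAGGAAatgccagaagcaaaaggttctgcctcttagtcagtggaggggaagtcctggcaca
Chil3: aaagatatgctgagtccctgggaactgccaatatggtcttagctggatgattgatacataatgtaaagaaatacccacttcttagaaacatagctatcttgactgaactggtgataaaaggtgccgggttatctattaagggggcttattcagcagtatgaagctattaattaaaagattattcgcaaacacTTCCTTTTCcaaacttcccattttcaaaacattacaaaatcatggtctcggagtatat
In these entries the match nearest to the start begins 15 bases before it in Plac8, 58 in Chil3, 61 in Ms4a4c and 108 in Ly6c2. In the second entries, which are not shown, it begins 8 bases before the start in Ly6c2 (PU.1) and 12 in Plac8 (C/EBP).

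Compared per kilobase of exon in the 9 wild-type mice of both ages, which were normalized separately, Chil3 had the highest level, 9492 ± 4318 normalized counts per kilobase (SD). Hp followed with 2731 ± 1241, then S100a4 with 1883 ± 515, Plac8 with 1608 ± 569, Ly6c2 with 801 ± 367, Ms4a4c with 752 ± 180, Fn1 with 591 ± 136 and Vcan with 45.7 ± 37.2. Chil3 stood above Hp, and Fn1 above Vcan, in 20 of 20 mice. The order of other neighbours was less fixed, with Hp above S100a4 in 12 of the 20 mice and Ly6c2 above Ms4a4c in 10. Exon length here is that of all annotated exons of a gene merged. For Ly6c2 it was 2740 bases, against 822 in the transcript compared with Ly6c1 above. The place of Ly6c2 in this order therefore depends on the length chosen.

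At 10 months, Chil3 had 7021, 4673, 9020, 4905 and 12780 normalized counts in the mThy1-α-synuclein mice (replicates 1 to 5) and 16358, 20942, 27324, 11557 and 21266 in the wild-type mice. A single mThy1-α-synuclein mouse, replicate 5, lay above the lowest wild-type mouse, replicate 4. At 7 months the wild-type mice had 15698, 11732, 11067 and 3479, and the mThy1-α-synuclein mice ran from 2107 to 21865 with a median of 9542. The wild-type range lay within that of the mThy1-α-synuclein mice at that age.

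Hp at 10 months had 1754, 1658, 2536, 1284 and 2445 in the mThy1-α-synuclein group and 6530, 6364, 7244, 2476 and 4620 in wild-type mice. Again the only overlap came from wild-type replicate 4, the lowest of its group. At 7 months Hp had 3322, 3431, 4143 and 1341 in wild-type mice and 704 to 4274 in mThy1-α-synuclein mice (median 1975).

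Plac8 at 10 months had 939, 1431, 1372, 651 and 899 in the mThy1-α-synuclein group against 2214, 3602, 2993, 1290 and 3377 in wild-type mice. The groups touched only at wild-type replicate 4. At 7 months it had 3695, 2060, 2402 and 1404 in wild-type mice and between 380 and 2404 in mThy1-α-synuclein mice (median 1031).

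Ly6c2 at 10 months had 1307, 957, 1548, 747 and 1582 in mThy1-α-synuclein mice and 1251, 3061, 3870, 1194 and 2418 in wild-type mice. Here wild-type replicates 1 and 4 both lay within the range of the mThy1-α-synuclein mice. At 7 months the wild-type mice had 2884, 2106, 2232 and 743, and the mThy1-α-synuclein mice 524 to 3916 (median 1439).

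Ms4a4c at 10 months had 913, 1207, 864, 581 and 742 in the mThy1-α-synuclein group and 1624, 1663, 1386, 1113 and 1686 in wild-type mice. The highest mThy1-α-synuclein mouse, replicate 2, was above wild-type replicate 4 only. At 7 months the genotypes had nearly the same mean, 1102 ± 290 normalized counts with the transgene (SD, n = 6) and 1094 ± 259 without it (n = 4).

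The remaining genes were Fn1, S100a4 and Vcan. Fn1 at 10 months lay between 4649 and 6323 in mThy1-α-synuclein mice and between 5830 and 9099 in wild-type mice. S100a4 had 500 to 740 and 566 to 1401, and Vcan 189 to 599 and 496 to 1927, in the same order. In all of these the ranges of the genotypes overlapped. At 7 months Fn1 ran from 2157 to 9878 in mThy1-α-synuclein mice and from 3885 to 8614 in wild-type mice, S100a4 from 310 to 1443 and from 823 to 1544, and Vcan from 76.6 to 1269 and from 126 to 498.

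**Figure D1:**
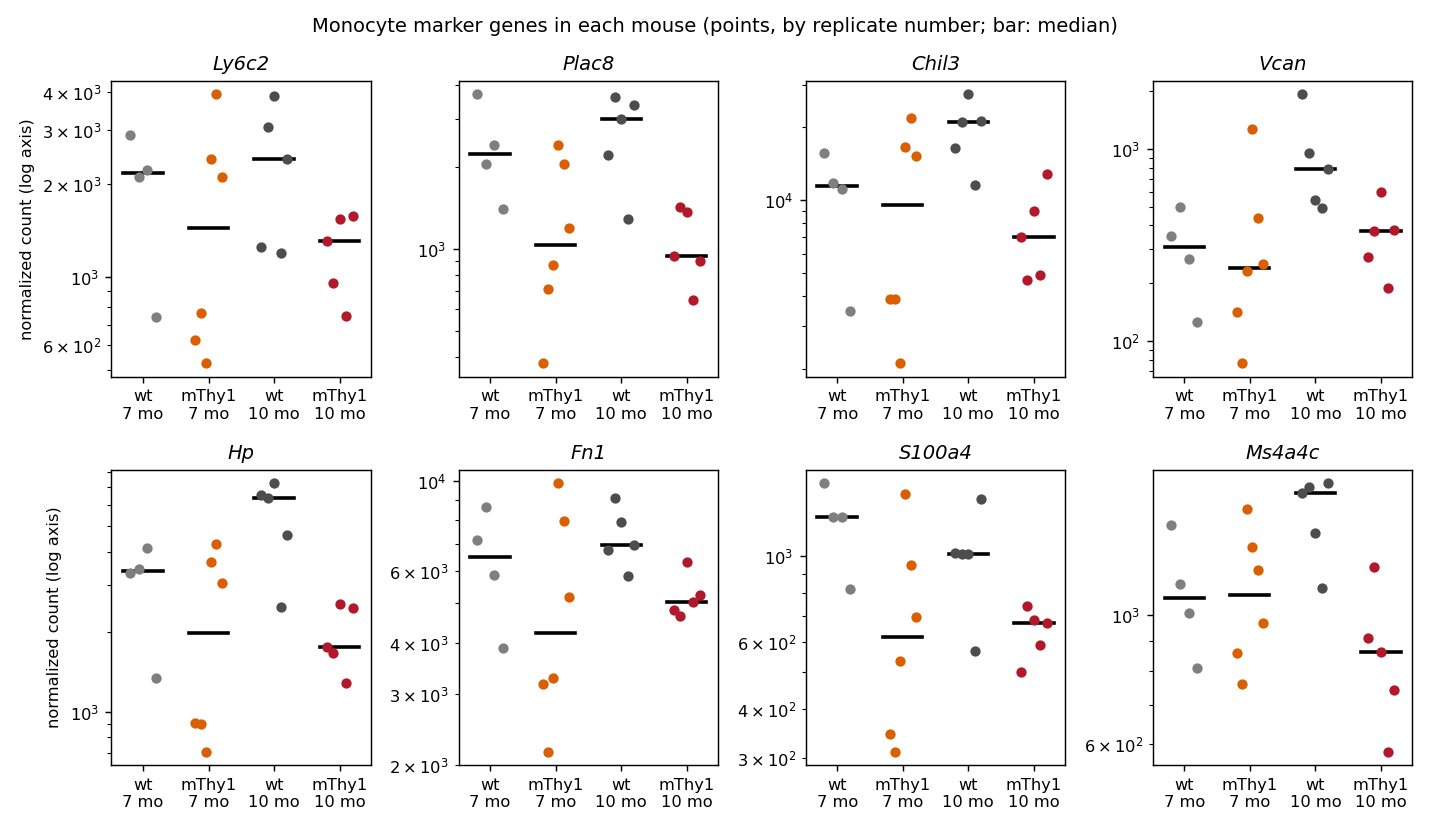
Normalized counts of each of the 8 genes (vertical log axis) in each mouse (points), for wild-type (wt) and mThy1-α-synuclein (mThy1) mice at 7 and 10 months (mo), with a bar at the median of the group. At 7 months the mThy1-α-synuclein points of Chil3 fall into 3 at or under 3880 and 3 at or over 15205, and at 10 months the median of every gene is lower in mThy1-α-synuclein than in wild-type mice.

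The spread between mice of a group was wide and was shared by the genes. In the 7-month mThy1-α-synuclein group the highest mouse had 10.4 times the Chil3, 16.6 times the Vcan and 7.47 times the Ly6c2 of the lowest, but 2.00 times the Ms4a4c. In that group replicates 1, 2 and 3 had at most 766 normalized counts of Ly6c2, 3880 of Chil3 and 908 of Hp, and replicates 4, 5 and 6 had at least 2112, 15205 and 3042. Ms4a4c instead reached its highest value of the group, 1524, in replicate 3. The labels give no difference among these 6 mice.

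Within a group, some mice were high or low in all 8 genes at once. On the log2(value + 1) scale, mThy1-α-synuclein replicates 4 and 5 and wild-type replicate 1 at 7 months, and mThy1-α-synuclein replicate 3 and wild-type replicate 2 at 10 months, were above the mean of their own group in all 8. Below it in all 8 were mThy1-α-synuclein replicates 1 and 2 and wild-type replicate 4 at 7 months, and replicate 4 of both genotypes at 10 months. Thus 10 of the 20 mice deviated in the same direction in every gene. The mean deviation over the 8 genes ran from -0.95 to 1.15 at 7 months and from -0.72 to 0.36 at 10 months.

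**Figure D2:**
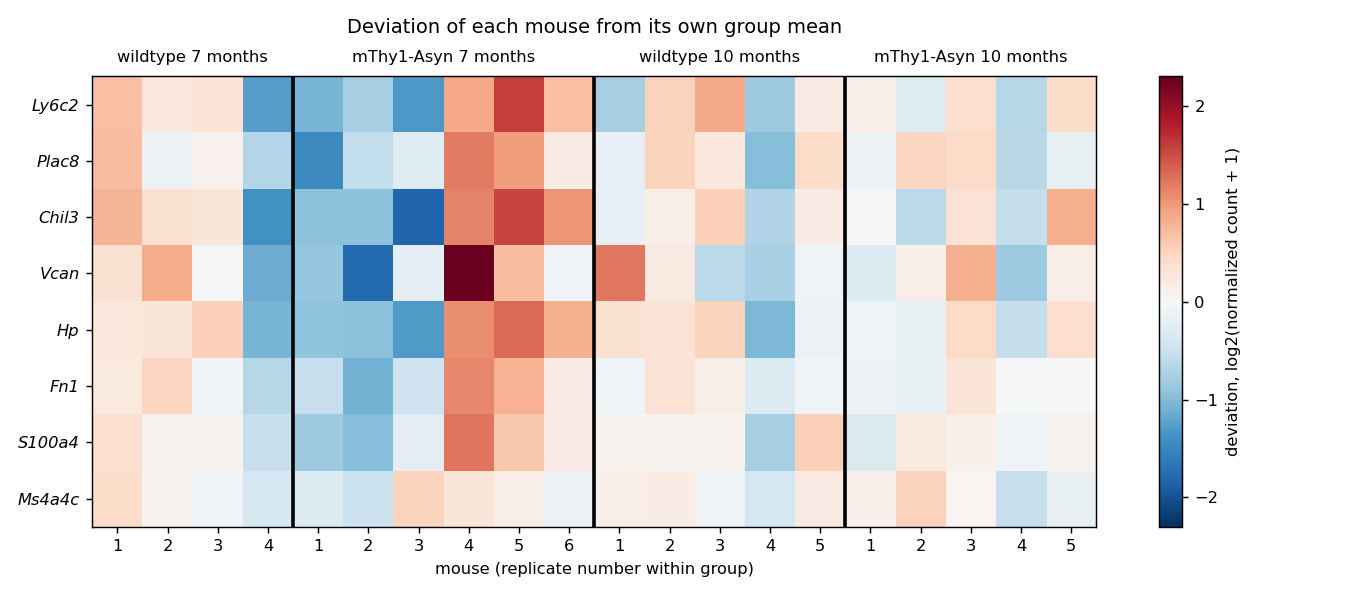
Deviation of each mouse (columns, by group and replicate) from the mean of its own group for each gene (rows), in log2(normalized count + 1) by the colour scale. Columns of a single colour are mice in which all 8 genes deviate the same way, such as wild-type replicate 4 at both ages, and the widest deviations are in the mThy1-α-synuclein mice at 7 months.

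To ask whether the genes moved together apart from genotype and age, these deviations were correlated over the 20 mice for all 28 pairs, with two-sided permutation tests within groups and Benjamini-Hochberg adjustment over the 28 pairs. In all 28 pairs r was above 0, with a median of 0.748, beside a median of -0.0025 over all pairs of the 14457 genes tested. An r of at least 0.5 was reached in 24 of the 28 pairs (85.7%), and in 4.53% of all gene pairs. After adjustment 23 pairs passed 0.05 by Pearson's r and 24 by Spearman's rho. On standardized values, the first principal component of the 8 genes held 75.8% of their variance.

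The tightest pairs joined Ly6c2, Chil3 and Hp. Ly6c2 and Chil3 had r = 0.95 (rho = 0.95; permutation p = 1e-05, the smallest that the permutations can give; adjusted p = 0.00014). Without the 2 mice farthest from the median it was 0.94, and within ages it was 0.99 at 7 and 0.85 at 10 months. Chil3 and Hp had r = 0.94 (rho = 0.90, adjusted permutation p = 0.00014; 0.98 and 0.79 within the ages) and Ly6c2 and Hp 0.91 (rho = 0.88, adjusted permutation p = 0.00049; 0.97 and 0.71 within the ages). Plac8 and S100a4, both small cytoplasmic proteins, formed another tight pair with r = 0.89 (rho = 0.83, adjusted permutation p = 0.00049), which was 0.93 at 7 and 0.78 at 10 months. The matrix genes Fn1 and Vcan had r = 0.84 (rho = 0.77, adjusted permutation p = 0.00101), which was 0.67 without the 2 farthest mice. Within ages this pair had 0.96 at 7 months and 0.32 at 10 months.

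Ms4a4c followed the other genes least. Its r was 0.23 with Chil3 (rho = 0.23, adjusted permutation p = 0.400), 0.34 with Ly6c2 (rho = 0.31, 0.202), 0.35 with Hp (rho = 0.21, 0.201) and 0.45 with Fn1 (rho = 0.35, 0.0987), none of which passed. With Plac8 (r = 0.69), Vcan (0.64) and S100a4 (0.63) it did pass, with adjusted permutation p-values of 0.0045, 0.00773 and 0.00773. A single mouse weighed on this. Without mThy1-α-synuclein replicate 3 at 7 months, the lowest r of all 28 pairs rose from 0.23 to 0.56 and 27 pairs passed. The fifth pair that missed the threshold was Ly6c2 and Vcan (r = 0.54, rho = 0.60, adjusted permutation p = 0.0645). Ms4a4c was also the gene that moved with depth. Its r with log2 reads per mouse was 0.59 (rho = 0.63, adjusted permutation p = 0.0351 over 128 relations), while for the other 7 genes r lay between -0.11 and 0.39 and none passed. The part of depth in its level was not tested.

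**Figure D3:**
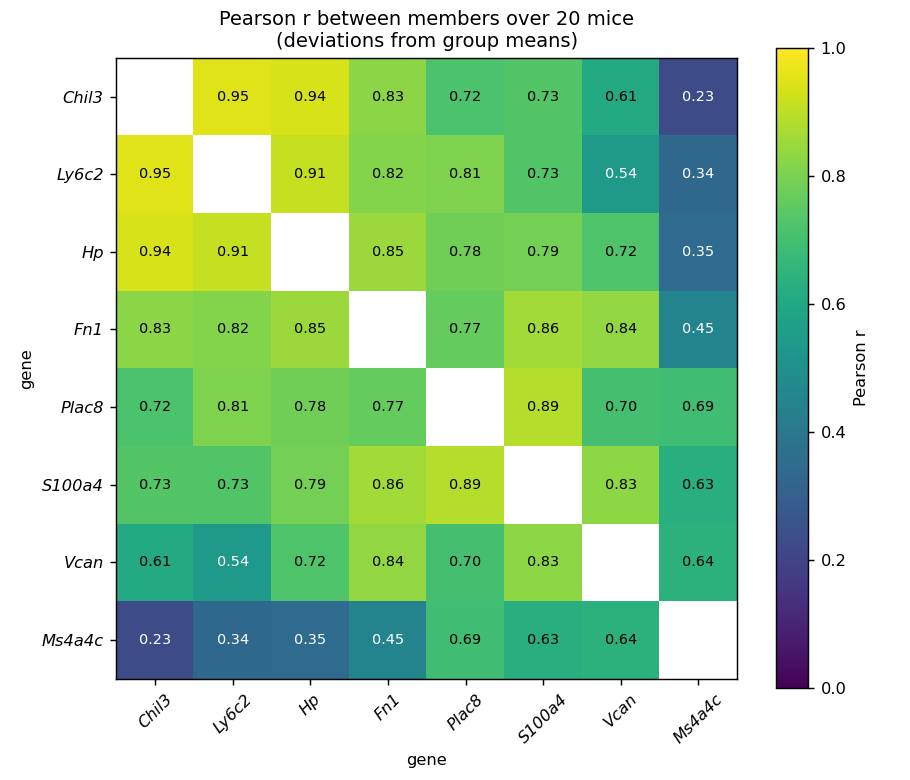
Pearson r (colour and printed value) of the deviations from group means over 20 mice for each pair of the 8 genes (both axes). Chil3, Ly6c2 and Hp form a block between 0.91 and 0.95, and the row of Ms4a4c holds the lowest values, from 0.23 to 0.69.

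Among the 7-month mice the median r over the 28 pairs was 0.820 and 22 pairs passed the threshold, against 0.565 and 1 pair (Ly6c2 and Chil3) among the 10-month mice. All 28 pairs stayed above 0 at each age and in each genotype, with a median of 0.793 among mice with the transgene and 0.745 among those without. Whether r differs between ages or genotypes was not tested. Without the 6 mThy1-α-synuclein mice at 7 months, whose values of Ly6c2, Chil3 and Hp were split into low and high, the median was 0.635 and 13 pairs passed.

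The genes that followed each member most closely over the 20 mice included known transcripts of neutrophils for some members. For Chil3 they were Lcn2 (r = 0.99), S100a8 (0.98) and Retnlg (0.98), all abundant transcripts of neutrophils. For Ly6c2 they were Ngp (0.98), a granule protein of neutrophils, Cd177 (0.98), a surface protein of neutrophils, and Mbnl3 (0.98). For Hp they were Chil1 (0.98), Gadd45a (0.98) and Nfe2 (0.98). Among all 14456 other genes, the best-placed member in these rankings was number 27 for Ly6c2, 30 for Chil3 and 36 for Hp.

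The others had different neighbours. Plac8 was followed by Spn (0.94), the sialoglycoprotein CD43 that is high on non-classical monocytes, Arhgef37 (0.93) and Pilrb1 (0.92). S100a4 was followed by Smpdl3a (0.94), Napsa (0.93) and Gm9733 (0.92). The neighbours of Vcan were Klf10 (0.94), a transcription factor induced by TGF-β, Irg1 (0.89), the enzyme that makes itaconate, and Clec4e (0.89), a lectin receptor. Those of Fn1 were Sik1 (0.93), a kinase, Ndrg1 (0.92) and Atp8b4 (0.91). Ms4a4c was followed by Ms4a6c (0.88), a gene of the same cluster, Dpp4 (0.87) and Kcnn1 (0.85). In these rankings the best-placed member was number 11 for Plac8, 12 for S100a4, 23 for Fn1, 25 for Vcan and 100 for Ms4a4c.

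Each member was also set against lists of marker genes. Against the mean log2 level of 11 other classical monocyte genes (among them Ccr2), r of the 8 members had a median of 0.863 and 7 members passed an adjusted p of 0.05, the family being all 128 relations with lists and depth. Ms4a4c did not pass, with r = 0.63 (rho = 0.56, adjusted permutation p = 0.0542). Against 11 neutrophil genes the median was 0.772 and 6 passed. Chil3 (r = 0.99, rho = 0.99), Ly6c2 (0.97, rho = 0.95) and Hp (0.95, rho = 0.92) followed the neutrophil list more closely than the list of other classical monocyte genes, where they had 0.86, 0.85 and 0.93. This order of a pair of r values was not tested. S100a4 and Plac8 followed the 6 non-classical monocyte genes with r = 0.90 and 0.89 (rho = 0.91 and 0.88), and 6 members passed against that list.

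With other cell types the relations were weaker. Median r was 0.580 against T and NK cells and -0.485 against border macrophages, with no member past the threshold in either, and -0.02 against microglia, where none passed. For some lists the sign of the median differed between the ages. It was -0.667 at 7 and 0.249 at 10 months against border macrophages, and 0.135 and -0.453 against microglia. Against the signals that recruit monocytes it was -0.360 and 0.498. These differences between ages were not tested. A single member passed against astrocytes (Plac8, r = 0.69, rho = 0.72), B cells (Ms4a4c, 0.69, rho = 0.68) and interferon-stimulated genes (Ms4a4c, 0.61, rho = 0.64). Within ages, Plac8 and astrocytes had r = 0.93 at 7 and 0.32 at 10 months. Ms4a4c had 0.79 and 0.54 with B cells, and 0.31 and 0.84 with interferon-stimulated genes. None passed against dendritic cells, oligodendrocyte precursors, fibroblasts and mural cells, endothelial cells, neurons or the signals that recruit monocytes, and too few erythroid genes were measured for a list. When the mean level of the neutrophil list was regressed out of every gene, the median r of the 28 pairs was 0.403, 25 pairs were above 0 and 10 passed. Ly6c2 and Chil3 then had r = 0.02, and Chil3 and Hp 0.06. Plac8 and S100a4 kept 0.77, Plac8 and Ms4a4c 0.74, Fn1 and Vcan 0.74, and S100a4 and Vcan 0.71, all past the threshold.

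**Figure D4:**
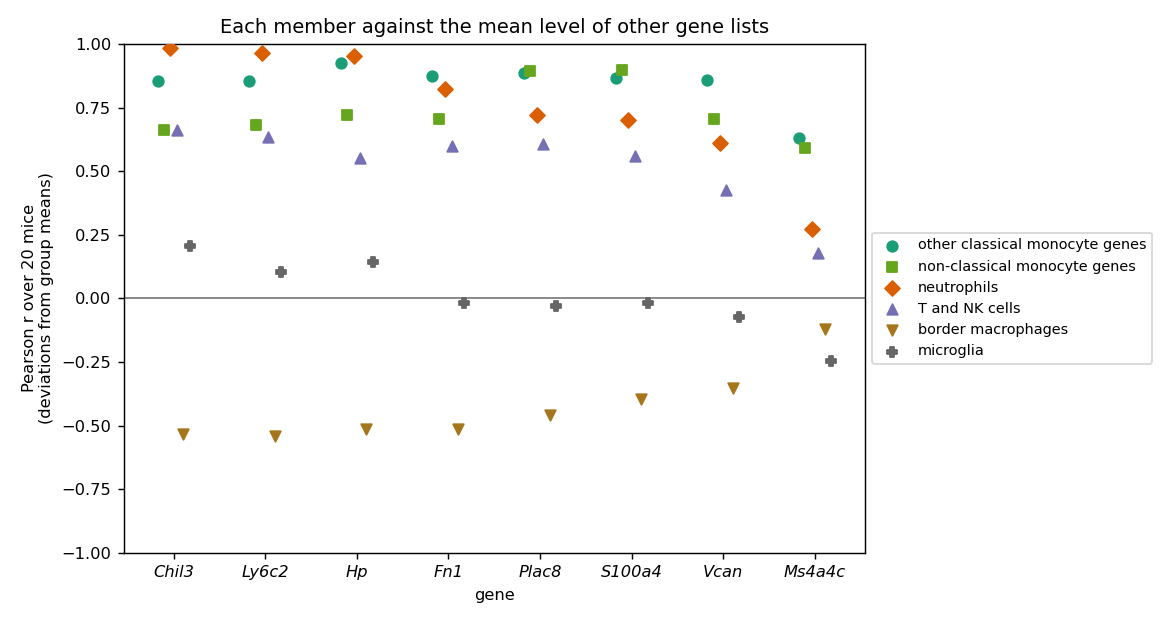
Pearson r over 20 mice (vertical axis, deviations from group means) of each of the 8 genes with the mean log2 level of 6 gene lists (symbols). For Chil3, Ly6c2 and Hp the neutrophil symbol stands highest, from 0.95 to 0.99, and for Ms4a4c it stands at 0.27, under both monocyte lists.

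Close relatives of the members were followed in the same way. Chil4 moved with Chil3 (r = 0.96, rho = 0.95, adjusted permutation p = 2.5e-05 over 5 pairs), as did Chil1 (r = 0.97, rho = 0.97), whose sequence was not compared. Ly6c1, which is also made by endothelial cells, had r = 0.67 with Ly6c2 (rho = 0.68, adjusted permutation p = 0.0045). S100a6 had 0.88 with S100a4 (rho = 0.79, adjusted permutation p = 0.000267) and Ms4a4b, a gene of T cells, 0.33 with Ms4a4c (rho = 0.35, adjusted permutation p = 0.223). Ms4a4d had at most 14.1 normalized counts in any mouse and was not tested.

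The genotypes were compared within each age on the log2(value + 1) scale with the moderated test of limma, adjusting p by Benjamini-Hochberg over all genes tested. At 10 months 5 of the 8 genes, Hp, Chil3, Plac8, Ms4a4c and Fn1, were lower in mThy1-α-synuclein than in wild-type mice. Of these, Chil3 and Hp had followed the neutrophil list (r = 0.99 and 0.95) more closely than the other classical monocyte genes (0.86 and 0.93). Which cells the lower values come from was not tested. All 8 had a negative log2 difference, with a median of -1.07 (all genes, -0.00), and 5 of the 8 passed the adjusted p of 0.05, all of them lower, where 3.79% of the 13627 genes passed as lower and 7.67% in either direction. Hp fell by 1.44 on the log2 scale (standard error 0.32, 2.72-fold lower, limma adjusted p = 0.0301). Chil3 fell by 1.39 (standard error 0.33, 2.62-fold, limma adjusted p = 0.0386) and Plac8 fell by 1.32 (standard error 0.32, 2.49-fold, limma adjusted p = 0.0413). Ms4a4c fell by 0.82 (standard error 0.18, 1.76-fold, limma adjusted p = 0.0191) and Fn1 fell by 0.48 (standard error 0.11, 1.40-fold, limma adjusted p = 0.0222).

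The other 3 did not pass. Vcan had a log2 difference of -1.29 (standard error 0.42, limma adjusted p = 0.0967), Ly6c2 of -0.84 (standard error 0.38, 0.223) and S100a4 of -0.61 (standard error 0.20, 0.0863). For none of the 8 were the ranges of the genotypes apart, whereas 3.49% of all genes had every mThy1-α-synuclein mouse below every wild-type mouse. On the recovered reads edgeR called 5 of the 8 and DESeq2 called 7, all but Ly6c2. DESeq2 also called more of all genes than limma did, as given in the last section. The number of all genes called by edgeR is not reported here.

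The 5 calls at 10 months rested on the full set of 10 mice. Leaving out a mouse kept all 8 differences below 0, but the number of calls was 0 without wild-type replicate 2, where 7 of the 8 still had an unadjusted p under 0.05. It was 1 without wild-type replicate 1 or 3 or mThy1-α-synuclein replicate 1, 2 without mThy1-α-synuclein replicate 2 or 4 or wild-type replicate 5, and 3 without mThy1-α-synuclein replicate 3. Without mThy1-α-synuclein replicate 5 it was 4, and without wild-type replicate 4, which is low in all 8 genes, it was 6. The number of all genes called moved as well, from 1045 to 497 without wild-type replicate 2 and to 1235 without wild-type replicate 4, the lowest and highest of the 10 fits. Ms4a4c kept its call in 8 of these 10 fits, Fn1 in 6, Hp in 3, and Chil3 and Plac8 in 2.

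At 7 months none of the 8 passed, where 4.93% of the 13887 genes did. limma, edgeR and DESeq2 each called 0 of the 8, and 0 of the 8 had an unadjusted limma p under 0.05. The median log2 difference was -0.43 (all genes, 0.00). The largest was that of Plac8, -1.09 (standard error 0.55, limma adjusted p = 0.296), followed by S100a4 with -0.95 (standard error 0.45, limma adjusted p = 0.263), and the smallest was that of Ms4a4c, -0.00 (standard error 0.21, limma adjusted p = 0.999). The standard errors of Chil3 (0.80), Vcan (0.76), Ly6c2 (0.69) and Hp (0.66) at this age were each larger than those at 10 months. None of the 8 had every mThy1-α-synuclein mouse below every wild-type mouse, against 3.97% of all genes.

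**Figure D5:**
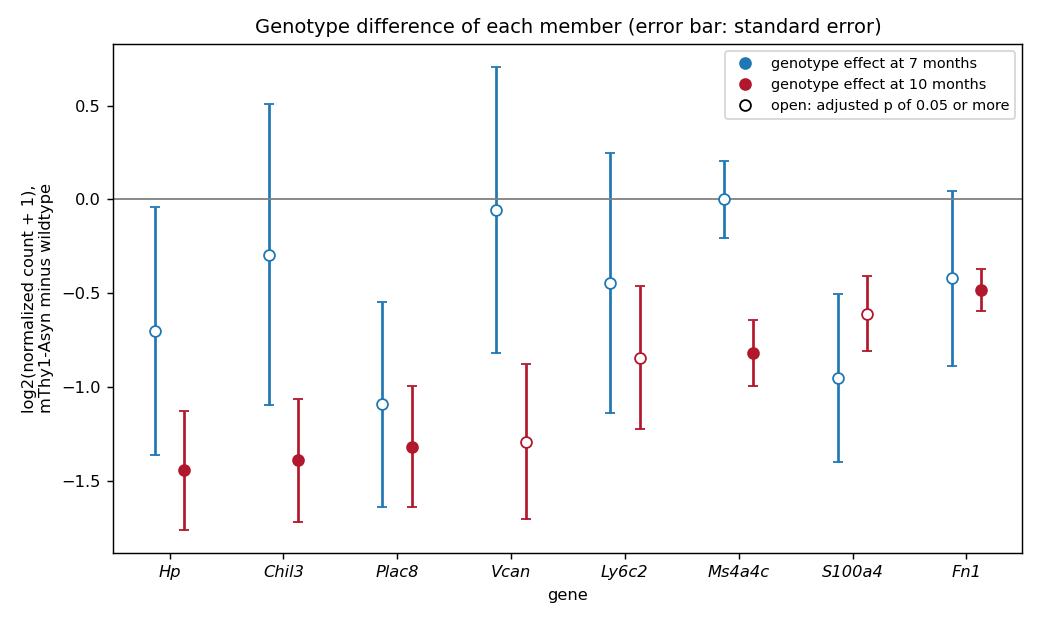
Difference in log2(normalized count + 1) between mThy1-α-synuclein and wild-type mice (vertical axis) for each of the 8 genes at 7 months (blue) and 10 months (red), with standard errors from limma. Filled points passed an adjusted p of 0.05, which are Hp, Chil3, Plac8, Ms4a4c and Fn1 at 10 months.

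The change of the genotype difference with age was tested in a fit of all 20 mice. None of the 8 passed, where 6.36% of 14457 genes did. The nearest was Ms4a4c, the only member with an unadjusted limma p under 0.05, whose difference was lower by 0.82 on the log2 scale at 10 than at 7 months (standard error 0.29, limma adjusted p = 0.105). DESeq2 called it (adjusted p = 0.0382) and edgeR did not (0.112). For the other 7 the interaction lay between -1.23 (Vcan) and 0.34 (S100a4), with standard errors from 0.48 to 0.89. That the genotype difference of these genes belongs to 10 months alone is therefore not shown.

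Of 11 other classical monocyte genes, 5 passed as lower at 10 months, none as higher, and the median log2 difference was -1.07. The log2 difference was -1.32 for Emilin2, -1.25 for F10, coagulation factor X, and -1.24 for Thbs1, thrombospondin-1 (standard error 0.20, limma adjusted p = 0.00756). Leaving out a mouse gave 1 (without wild-type replicate 1, 2 or 3) to 10 (without wild-type replicate 4) calls in this list. Thbs1 passed in all 10 of these fits, and Emilin2 and F10 in 3. The summed level of normalized counts ran from 16306 to 29006 with the transgene and from 33473 to 65718 without it. Of 6 non-classical genes, Pglyrp1, an antibacterial protein that neutrophils also make, passed, with a log2 difference of -1.20, and kept its call in 2 of the 10 fits. At 7 months no gene of either list passed, and their median log2 differences were -0.65 and -1.13. Without mThy1-α-synuclein replicate 4 at 7 months, 3 genes of each list passed (Emilin2, Itga4 and Itgal, and Ace, Cd300e and Treml4), and none did without any other mouse.

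Among signals that recruit monocytes, the chemokine genes Ccl7 and Ccl2, whose products bind CCR2, were lower in mThy1-α-synuclein than in wild-type mice at 10 months. Their log2 differences were -1.39 (standard error 0.30, limma adjusted p = 0.0136) and -0.63 (standard error 0.18, limma adjusted p = 0.0466). Vcam1, an adhesion molecule for leukocytes, was higher by 1.64 at 7 months (standard error 0.21, limma adjusted p = 0.00275) and by 0.43 at 10 months (standard error 0.11, limma adjusted p = 0.0283). The other 5 of the 8 genes tested passed at neither age. When a mouse was left out, Ccl7 and the 7-month call of Vcam1 passed in 10 of 10 fits, Vcam1 at 10 months in 5 and Ccl2 in 2.

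Markers of other cell types moved with the genotype at 10 months too, and their part in the results above was not tested. Of 11 neutrophil genes 3 passed, all lower (log2 differences of -1.51 for Retnlg, -1.48 for Cxcr2 and -0.33 for Csf3r), with a list median of -1.08. Their summed level ran from 101355 to 237846 with the transgene and from 198217 to 452997 without it. Between 0 (without mThy1-α-synuclein replicate 1 or 2 or wild-type replicate 1, 2 or 3) and 7 (without wild-type replicate 4) neutrophil genes passed when a mouse was left out. All 9 border macrophage genes had a negative log2 difference and 5 passed (-0.98 for Folr2, -0.79 for Cbr2, -0.74 for F13a1 and -0.53 for Pf4 among them). Their summed level was 19913 to 25397 with the transgene against 27252 to 37047 without it. With a mouse left out, 1 to 4 of them passed, the fewest without wild-type replicate 2. Of the 4 named border macrophage genes, F13a1 passed in 9 of these 10 fits and the others in 1 to 3. The fifth, which is not named here (log2 difference -0.45, limma adjusted p = 0.0151), passed in every such fit. All 6 genes of T and NK cells had a negative log2 difference and 4 passed, Cd3d with the largest, -2.33, and in 10 of 10 fits. When a mouse was left out, 2 (without mThy1-α-synuclein replicate 1, 2 or 5 or wild-type replicate 1, 2 or 5) to 5 (without wild-type replicate 3) passed. At 7 months Gzma, Klrb1c and Klrk1 passed as lower, of which Gzma and Klrb1c were among the 4 at 10 months. None of the 6 passed without wild-type replicate 1 at 7 months. Of 10 microglia genes, Siglech (0.31), Sall1 (0.30), Itgam (0.22) and Cx3cr1 (0.21) were higher at 10 months, but no more than 2 of the 10 passed when a mouse was left out, and 0 in 6 of the 10 such fits.

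Of the remaining lists, Cd209a of dendritic cells and Isg15 of interferon-stimulated genes were lower at 10 months and Aldh1l1 of astrocytes was higher (calls kept in 10, 2 and 1 of the 10 fits without a mouse), and no gene passed in the lists of B cells, oligodendrocyte precursors, fibroblasts and mural cells, endothelial cells and neurons. At 7 months 4 of 6 neuronal, 2 of 8 endothelial and 1 of 6 fibroblast and mural genes passed as lower, 1 of 9 interferon-stimulated genes as higher, and 1 of 6 astrocyte genes in each direction.

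Relatives of the members were tested in the same fits. At 10 months Chil4 (log2 difference -1.43, standard error 0.38, limma adjusted p = 0.0457), Chil1 (-1.24, standard error 0.32, 0.0493) and Ms4a4b (-1.18, standard error 0.25, 0.0135) were lower. S100a6 had a log2 difference of -0.91 (0.0553) and Ly6c1 of -0.56 (limma adjusted p = 0.269), which did not pass. Ms4a4b passed in 10 of the 10 fits without a mouse, Chil4 in 2 and Chil1 in 1. At 7 months none of these 5 passed.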

How the data were processed

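RNA from microglia of 20 mice was sequenced. The authors trimmed reads with Trim Galore 0.6.7, mapped them to mm10 with HISAT2 2.2.1, counted them with featureCounts and divided them by size factors of DESeq2 1.44.0. The signal values as deposited are these depth-normalized counts. All values were whole multiples of a step per mouse (within 0.05 reads), and the steps equalled size factors computed within each age, so whole reads were recovered for edgeR 4.0.16 and DESeq2 1.42.0 as alternatives. The main test was limma 3.58.1 (trend, robust) on log2(value + 1), in R 4.3.3, for genes that reached a value of 10 in 4 or more mice at 7 months, 5 at 10 months and 4 for the interaction. Correlations used deviations from group means and 100000 permutations within groups (Python 3.11.15, numpy 2.4.6, scipy 1.17.1), with exact enumeration where fewer arrangements exist. The tests were checked on simulated data.

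The members and gene lists were chosen with earlier results of these data known. Genes named are the members, the 3 genes nearest to each by r, up to 4 genes past the threshold per list (some named by this rule are not reported here), the members' relatives and label checks. Positions and exon lengths come from the GRCm38 annotation. Mice are numbered from 1 in each group and the labels pair none of them across groups, and p-values measure the spread between these mice. Reads per mouse were 33404096 to 77806399. DNA methylation was not analysed here.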

Additional observations from a re-analysis of the deposited data

Results flagged for a closer look

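No value of the 8 genes stood apart from its group by Dixon's criterion in any of the 32 sets of mice checked (8 genes in 4 groups), where chance gives about 5%. None of the 8 had a genotype difference that changed with age after adjustment by limma. Of the 143 genes of the members and lists together, not all of them tested, 14 did, all from the lists. Of all 14457 genes tested, 6.36% passed. The log2 genotype difference (mThy1-α-synuclein minus wild-type) at 10 months minus that at 7 months was -1.74 for Ccl7 (standard error 0.37, limma adjusted p = 0.00736), a chemokine that binds CCR2. It was -1.21 for Vcam1 (standard error 0.24, limma adjusted p = 0.00726), an adhesion molecule. For Csf3r, the receptor of the neutrophil growth factor G-CSF, it was -0.48 (standard error 0.12, limma adjusted p = 0.0187). For Clec10a, a lectin of border macrophages, it was -1.22 (standard error 0.32, limma adjusted p = 0.0273). This last call was lost without wild-type replicate 1 at 10 months or replicate 1 or 3 at 7 months. For Cd209a, a lectin of dendritic cells, it was -0.67 (standard error 0.16, limma adjusted p = 0.0127). Of the interferon-stimulated genes, it was -1.26 for Isg15 (standard error 0.33, limma adjusted p = 0.0233), -1.35 for Ifit1, -1.44 for Usp18 and -1.0 for Ifit3. From 2 (without wild-type replicate 1 at 10 months or 2 at 7 months) to 8 (without mThy1-α-synuclein replicate 1 at 10 months) genes of that list passed when a mouse was left out, Isg15 and Ifit1 in every such fit. The difference was positive for the astrocyte genes Gja1 (2.35) and Slc1a2 (1.74) and the neuronal genes Syt1 (2.65), Rbfox3 (2.39) and Grin2b (2.26). The calls of these 5 held without any single mouse, except for Slc1a2 without wild-type replicate 1 at 7 months.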

How the results depend on the processing

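At 10 months the number of the 8 genes called by limma, 5, was 4 to 7 under the other models, scalings, pseudocounts, filters and variance settings. It was 6 with the replicate number as a block, although the numbers pair no mice (correlation of same-numbered mice from -0.134 to 0.0995). Without a single mouse it ranged from 0 to 6, while all genes called ranged from 497 to 1235. The cause was not tested. All 152 alternative log2 differences of the 8 genes at 10 months were below 0. At 7 months the count was 0 under every alternative, block included, and 135 of 152 differences were below 0. For the interaction it was 0 except for 1 (Ms4a4c) with DESeq2, and the block gave 0. The block moved the number of all genes called from 684 to 414 at 7 months and from 920 to 482 in the interaction. All genes called at 10 months, 1045, were 1694 with DESeq2 and 565 without trend and robust estimation, and at 7 months 1158 and 408.

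Of the 28 pairs, 23 passed (22 to 27 when a mouse was left out, with a median r from 0.718 to 0.802). The median r of 0.748 was 0.717 by Spearman's rho, 0.820 in the 7-month mice and 0.565 in the 10-month mice, where 1 pair passed. In mThy1-α-synuclein mice alone 9 pairs passed and in wild-type mice 6, with 11 and 9 mice. Alternatives added after the data were seen were leaving out the mThy1-α-synuclein mice at 7 months (13 pairs, median 0.635), regressing out the neutrophil list (10 pairs, median 0.403; Ly6c2 and Hp turned to -0.10) and Spearman's rho for the relations with lists, 23 of which passed by r and 25 by rho. Rescaling over all mice and pseudocounts of 0.5 and 5 left 23 pairs each.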
